A study of Mus musculus with 7 samples.

Results

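Zbtb7b, Gata3, Tox, Satb1, Bcl11b and Myb encode 6 transcription factors that act on the choice of thymocytes between the CD4+ helper and the CD8+ cytotoxic lineage or on the commitment to the T lineage that comes before it. Regions of Runx3 binding and of H3K4me1 were taken as theirs when the midpoint of the region lay in the gene body or within 50 kb of it, in the GENCODE annotation of the mouse build mm9. This rule gave 10 of the 4934 Runx3-bound regions and 156 of the 76705 H3K4me1-marked regions, at 6 of 22350 protein-coding genes. All 6 genes are transcribed from the minus strand.

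The regions came from chromatin immunoprecipitation and sequencing (ChIP-seq) of resting CD8+ T cells (CD8-TC) from the spleen of wild-type ICR mice. The cells were positively selected with magnetic beads against CD8, and the labels give 18 mice for each library. The 7 libraries formed 3 groups: 3 Runx3 libraries (in-house polyclonal antibody, 2 biological repeats), 2 H3K4me1 libraries (monoclonal antibody) and 2 libraries of non-immune serum (NIS), the control against which regions were called. Cells of all groups were fixed and frozen after isolation and were not activated, and the sources used here give no age. Regions of each antibody were called on joined repeats, so that each list is 1 measurement without an estimate of replicate error. No conditions are compared. The lists hold positions and no heights or read counts. The depth behind a region is therefore unknown, and a region that is missing from a list cannot be told apart from one below the calling threshold. A mark carried by few cells and a weak mark carried by all cells cannot be told apart either.

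Runx3 is a RUNX family transcription factor that is switched on as thymocytes become CD8+ cells, where it silences Cd4. H3K4me1, histone H3 with a single methyl group on lysine 4, marks enhancers, active or poised, and the flanks of active promoters. Zbtb7b encodes ThPOK, the zinc-finger factor that commits thymocytes to the CD4+ lineage, and RUNX complexes are known to repress it in the CD8+ lineage through a silencer upstream of the gene. Gata3 and Tox act before or beside Zbtb7b in the CD4+ lineage, Satb1 organizes the chromatin of thymocytes, Bcl11b commits progenitors to the T lineage and Myb is needed at several steps of thymocyte development.

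In these windows Runx3-bound regions were called at Tox and Satb1, with 6 and 4 regions, and at none of Zbtb7b, Gata3, Bcl11b and Myb. Thus 2 of the 6 genes had a Runx3-bound region, against 30.8% of all protein-coding genes treated in the same way, a share near the background, and against 58.1% of the 6738 genes that, like each of the 6, had at least 12 H3K4me1-marked regions. H3K4me1 was called at all 6 genes, as at 79.3% of protein-coding genes. Satb1 held 35 H3K4me1-marked regions, Bcl11b 34, Tox 27, Zbtb7b 25, Myb 23 and Gata3 12. The genes without a called Runx3-bound region therefore spanned nearly the whole range of H3K4me1 counts among the 6, from Gata3 at the low end to Bcl11b next to Satb1 at the top. The paper gave regions to genes by another rule, the GREAT tool. It counts Gata3 and Myb as Runx3-regulated in IL-2-activated cells, a state not covered here.

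**Figure D1:**
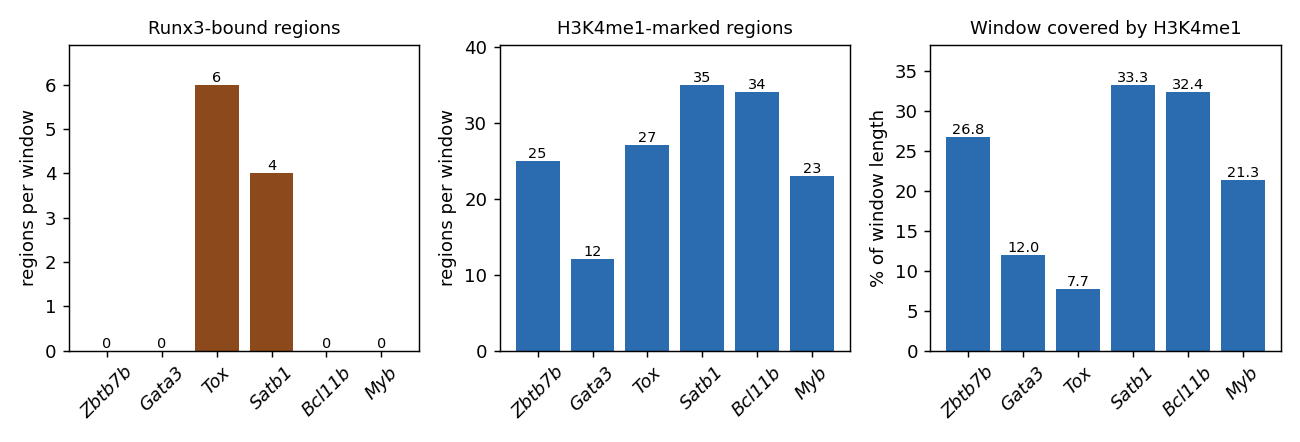
Bars give, for each of the 6 genes, the number of Runx3-bound regions, the number of H3K4me1-marked regions and the percentage of the window (gene body and 50 kb on each side) that H3K4me1 covers. Tox and Satb1 hold the 10 Runx3-bound regions, whereas each gene holds 12 to 35 H3K4me1-marked regions, and no bar has an error because each list was called once.

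Tox encodes an HMG-box DNA-binding protein that is needed for CD4+ T cells to form. The gene lies on chr4:6613500-6918704 and at 305 kb is by far the longest of the 6. Its 6 Runx3-bound regions are called Tox regions 1 to 6 here, in the direction of transcription. Regions 1 to 4 lay in intron 1 of the gene, at 20.9, 41.1, 66.7 and 89.3 kb from the annotated 5′ end. Region 5 lay in intron 3 at 174 kb, and region 6 lay 4.28 kb beyond the 3′ end of the gene. Thus 5 lay in the gene body, where 8.52% of protein-coding genes had a Runx3-bound region, and none lay at the promoter. Only 0.233% of protein-coding genes had 6 or more Runx3-bound regions in the window, but the Tox window is long, and per 100 kb its 1.48 regions were reached by 7.32% of genes. No other protein-coding gene lies within 50 kb of Tox.

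Satb1 encodes a nuclear protein that folds chromatin around matrix attachment sites in thymocytes. The gene lies on chr17:51875512-51972615 and has 13 annotated start sites of protein-coding transcripts. Satb1 regions 1 and 2 lay 46.1 and 43.4 kb upstream of the annotated 5′ end, inside the same H3K4me1-marked region of 5477 bp. Region 3 lay 18.7 kb into the gene, in an intron of a long transcript, and 1214 bp from the nearest start site of Satb1. Region 4 lay in intron 5 at 44.0 kb. With a margin of 5 or 10 kb in place of 50 kb, the 2 upstream regions dropped out and 2 were left. As many as 4 regions were found at 1.34% of protein-coding genes, and the 2.03 regions per 100 kb of Satb1 were reached by 2.56%. No other protein-coding gene lies in the Satb1 window.

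The DNA under these regions is shown for the Satb1 region with most RUNX motifs and for the Runx3-bound region nearest a start site of each gene, so that bound DNA with many and with few motifs can be compared. RUNX proteins recognize a short core, searched here as TGTGGT or as TGTGGC, and in the forms with a CpG as TGCGGT or as TGCGGC, on either strand. Each line gives the 300 bases around the midpoint, 5′ to 3′ on the plus strand of mm9, with RUNX motifs in capitals (ACCACA is TGTGGT read from the other strand, and GCCACA is TGTGGC).
Tox region 1 (chr4:6897674-6897973): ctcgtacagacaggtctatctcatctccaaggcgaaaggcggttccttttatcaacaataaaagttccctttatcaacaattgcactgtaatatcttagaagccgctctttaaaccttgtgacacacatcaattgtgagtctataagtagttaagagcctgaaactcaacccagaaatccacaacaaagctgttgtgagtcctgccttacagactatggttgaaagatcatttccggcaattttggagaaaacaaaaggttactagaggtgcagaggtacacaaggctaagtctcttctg
Satb1 region 4 (chr17:51928483-51928782): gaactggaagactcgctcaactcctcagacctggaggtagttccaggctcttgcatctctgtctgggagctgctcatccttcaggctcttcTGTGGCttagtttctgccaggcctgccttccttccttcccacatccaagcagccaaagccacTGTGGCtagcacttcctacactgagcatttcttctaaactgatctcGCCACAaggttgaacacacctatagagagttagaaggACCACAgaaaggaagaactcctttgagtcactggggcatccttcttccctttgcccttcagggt
Satb1 region 3 (chr17:51953734-51954033): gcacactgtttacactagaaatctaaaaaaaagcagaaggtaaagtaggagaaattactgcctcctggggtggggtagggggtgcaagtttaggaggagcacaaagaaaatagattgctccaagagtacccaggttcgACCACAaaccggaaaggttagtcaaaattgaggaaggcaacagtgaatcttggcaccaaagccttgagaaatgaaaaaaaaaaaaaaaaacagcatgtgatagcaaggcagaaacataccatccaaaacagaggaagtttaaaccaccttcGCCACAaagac

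Satb1 region 4 held 4 RUNX motifs in these 300 bases, the most of the 10, and Tox region 3 held 3 in its window. Satb1 region 3 held 2, of which the motif nearest the midpoint is 9 bp from it. Tox region 1 held none, neither in the window nor in the whole 775 bp of the region. The sequences shown thus range from a cluster of motifs around the midpoint to bound DNA without these letters.

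The other 6 regions held 1 or 2 motifs in the window. They are shown by the motif nearest the midpoint (capitals) with 12 bases on each side, plus strand of mm9.
Satb1 region 1 (chr17:52018741-52018770): agcctcttttgaTGTGGTggcatctggcag
Satb1 region 2 (chr17:52015969-52015998): ccgcctcctctgACCACAtcccttagagtt
Tox region 2 (chr4:6877626-6877655): gcttcctgttgcTGTGGTaaagatgacaac
Tox region 4 (chr4:6829413-6829442): ggaagctgggaaACCACAgctcaataataa
Tox region 5 (chr4:6744409-6744438): gcatgtccgtgtACCACAttgcacacagtg
Tox region 6 (chr4:6609226-6609255): acagttgcaggcTGTGGTtttcttgtctgt

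In each of these 6 regions the motif nearest the midpoint was TGTGGT. Over the 9 regions with a motif, the distance from the midpoint to the center of the nearest motif ran from 6 bp in Satb1 region 4 to 70 bp in Tox region 2. TGTGGT was present in the window of 9 of the 10 regions (exact Clopper-Pearson 95% interval 55.5 to 99.7%), against 54.9% of all Runx3-bound regions, and TGTGGC in 4, against 29.3%. The 54.9% lies just outside its interval, which takes regions at 2 genes as independent draws and is among many given here. Of the 10 regions, 9 lay over 5 kb from a start site, against 63.9% of the list. The paper reports TGTGGT as the most enriched form in regions far from start sites. The part of distance in this share was not tested. TGCGGT and TGCGGC, the forms with a CpG, were found in none of the 10 (interval 0 to 30.8%), against 13.9% and 7.28%, both inside the interval.

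Any RUNX motif was present in 9 of 10 windows (90.0%, interval 55.5 to 99.7%), against 76.0% of all 4934. In the whole length of the regions it was also present in 9 of 10, against 88.8% of all. In windows of the same length 5 kb up- and downstream the motif was present in 5 of 20 at these genes (25%, interval 8.66 to 49.1%) and in 39.1% over the whole list. The intervals cover counting error over regions only. For any RUNX motif the interval of the 10 midpoints held the value of the whole list, and it did not meet that of their flanks.

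ETS factors are frequent partners of RUNX proteins in T cells. Their motif, searched as GGAA with A or C before it and A or G behind it, was present in all 10 windows, against 76.0% of all Runx3-bound regions and against 11 of 20 flanking windows. Tox regions 3 and 4 and Satb1 regions 1 and 4 each held 4 ETS motifs. A RUNX and an ETS motif started within 50 bp of each other in 7 of the 10 windows, against 41.5% of all. In Satb1 region 4 the 4 RUNX and 4 ETS motifs lay among each other around the midpoint, as the plot of motif positions shows. The intervals of the 10 windows held the values of the whole list for ETS (69.2 to 100%) and for the pairs (34.8 to 93.3%).

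Motifs of GATA and MYB factors, the families of Gata3 and Myb, and of 3 other groups of factors were searched in the same windows. GATA motifs (GATA with A or T before it and A or G behind it) were present in 7 of 10 windows, against 41.2% of all, but also in 12 of the 20 flanking windows of these regions, with overlapping intervals (34.8 to 93.3% and 36.1 to 80.9%). MYB motifs (AAC with C or T before it and TG or GG behind it) were present in 3, against 31.2%. Motifs of TCF and LEF factors (CTTTGAA or CTTTGAT), E-boxes (CAGCTG or CAGGTG) and AP-1 motifs (TGACTCA or TGAGTCA) were each present in 1 window, against 16%, 33.4% and 6.57%. The AP-1 motif was in Satb1 region 4, the E-box in Tox region 4 and the TCF/LEF motif in Tox region 6. All motifs were counted on both strands, and a base could belong to more than 1 motif. The median GC content of the 10 windows was 42.8% (36.3% in Tox region 4 to 52.3% in Satb1 region 1), against 46.8% over the list.

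**Figure D2:**
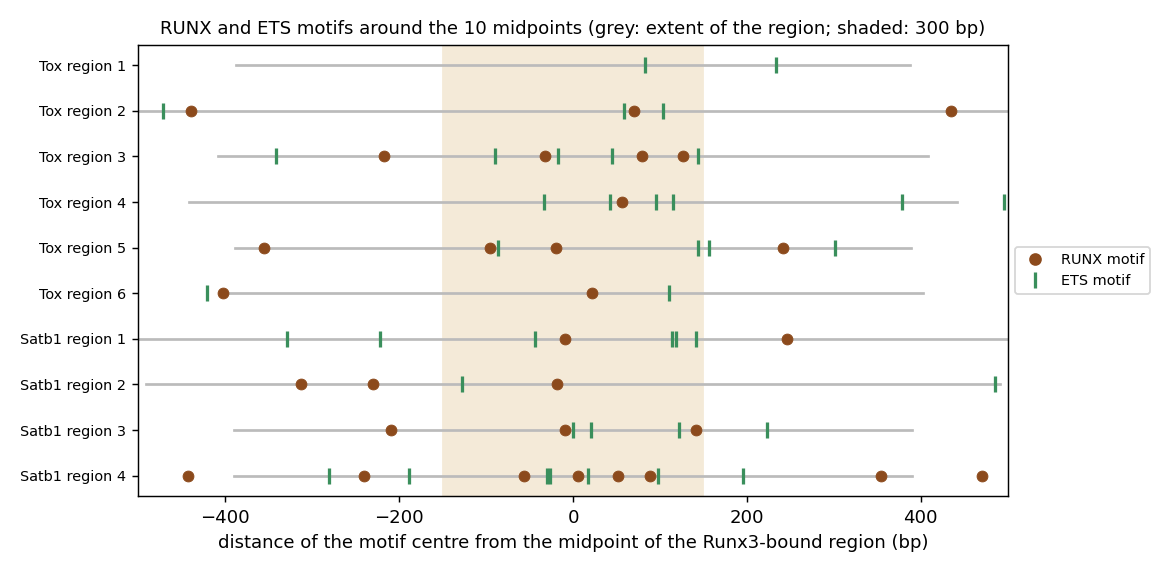
Each row is a Runx3-bound region of Tox or Satb1, with the distance from its midpoint in bp on the horizontal axis; circles are RUNX motifs, green ticks are ETS motifs, the grey line is the extent of the region and the shaded band the 300 bp searched. Of the 10 rows, 9 have a RUNX motif in the band and 10 have an ETS motif there, and Tox region 1 has no RUNX motif at all.

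All 10 Runx3-bound regions overlapped H3K4me1 (interval 69.2 to 100%), against 78.8% of the whole Runx3 list. The cover was complete in 8 of them and reached 98.3% in Tox region 6, which lay across the gap between 2 H3K4me1-marked regions. Tox region 1, the one without a RUNX motif, was covered by 46.2% and was the only one whose midpoint lay outside H3K4me1. Midpoints lay in H3K4me1 for 66.1% of the list. Distances to start sites depend on the rule, since all 10 regions lie at long genes whose windows hold no other protein-coding gene. Satb1 region 3 was the single region within 5 kb of an annotated transcript start, so that 9 of 10 lay farther away (90.0%, interval 55.5 to 99.7%), against 63.9% of the list. The median distance was 41.7 kb, against 10.8 kb. Widths were close to those of the list, with a median of 811 bp (775 to 1042 bp) against 851 bp. The intervals for overlap and distance hold the values of the list. The 10 regions lie at 2 genes and some are neighbors, so that they are not independent draws.

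The H3K4me1-marked regions with Runx3 were wide ones. There were 10 of them, 7 at Tox and 3 at Satb1, with a median width of 2272.5 bp (1186 to 5477 bp), and the 146 without Runx3 had a median of 881.5 bp. A like gap was present over the whole list, at 2260 and 946 bp, and the part of width in the overlap was not tested. Of the 156 regions, 6.41% overlapped Runx3 (interval 3.12 to 11.5%), close to the 5.49% of the list. This pooled share joined 10 of 62 regions (16.1%) at Tox and Satb1 with 0 of 94 at Zbtb7b, Gata3, Bcl11b and Myb. That split follows from where Runx3-bound regions were called.

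**Figure D3:**
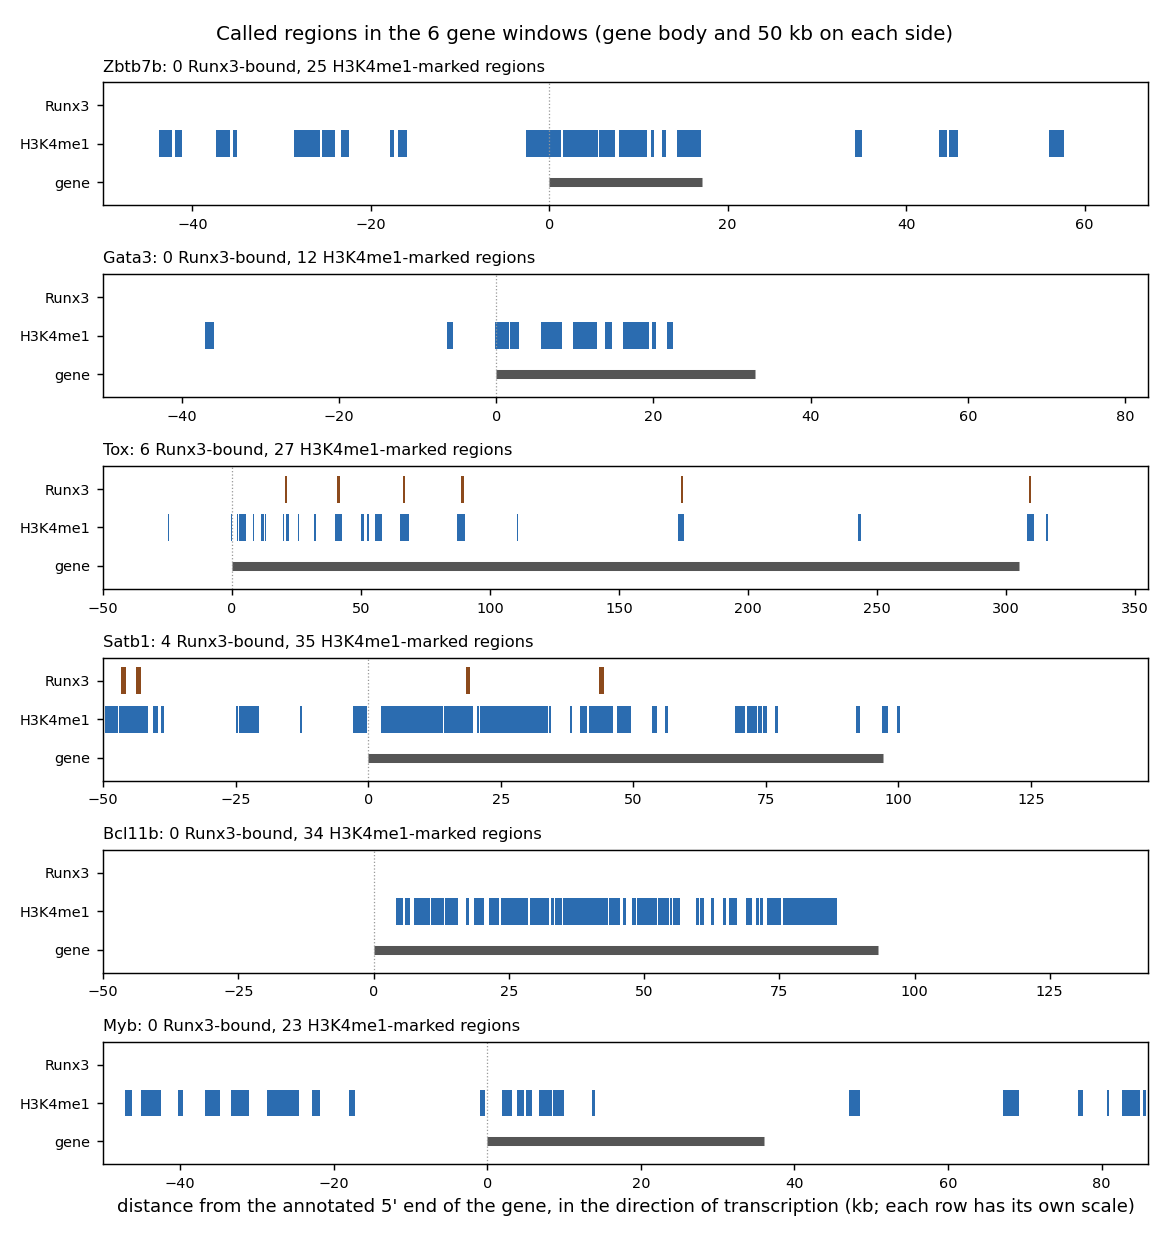
Rows show the window of each gene with the distance from the annotated 5′ end in kb in the direction of transcription on the horizontal axis (a scale for each row); brown bars are Runx3-bound regions, blue bars H3K4me1-marked regions and the grey bar is the gene body, all drawn to scale. Bcl11b has its 34 marked regions inside the gene, Myb has 10 of 23 upstream, and the 6 and 4 Runx3-bound regions of Tox and Satb1 all overlap blue bars, Tox region 1 by 46.2% of its length.

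At Zbtb7b, the gene of the CD4+ lineage factor ThPOK, no Runx3-bound region was called within 50 kb. The gene, on chr3:89181566-89198698, is 17.1 kb long and its window holds 9 other protein-coding genes. H3K4me1 was dense here, with 21.3 regions per 100 kb, which 1.28% of protein-coding genes reached, and it covered 26.8% of the window. Only 11 of the 25 regions had a start site of Zbtb7b as the nearest of a protein-coding gene, and the other 14 lay nearer to those of neighbors such as Shc1 and Pygo2. Those next to Zbtb7b ran almost without break: 9 regions, joined where gaps were 1000 bp or less, spanned 15.7 kb from just upstream of the gene to 13.1 kb into it. Of all 48155 H3K4me1 stretches joined in this way, 1.04% were as wide. The annotated 5′ end lay within H3K4me1 (chr3:89197354-89198748), and the widest region was 3162 bp in intron 1 (chr3:89187714-89190875), with 10 RUNX motifs. The nearest Runx3-bound region was 54.4 kb upstream at chr3:89252796-89253478, just beyond the limit of 50 kb, inside Pbxip1 and nearest to the start of Pmvk. It overlapped H3K4me1.

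Gata3 encodes the GATA zinc-finger factor of early T cells and of CD4+ Th2 cells. The gene lies on chr2:9778705-9811661 and had the fewest H3K4me1-marked regions of the 6, a number that 30.1% of protein-coding genes reached. Of its 12 regions, 10 lay in the gene body, 2 upstream and none downstream. They covered 12.0% of the window. The widest was 3336 bp in intron 3 (chr2:9792197-9795532), and the 5′ end was covered (chr2:9810011-9811862). Both annotated start sites of its protein-coding transcripts lay in H3K4me1. Near the 5′ end 3 regions also lie in 4930412O13Rik and 9230102O04Rik, which overlap Gata3, so that they cannot be given to a single gene. The nearest Runx3-bound region was 167 kb downstream (chr2:9610788-9611777).

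Bcl11b encodes the zinc-finger factor that shuts off the progenitor program in early T cells. The gene lies on chr12:109148613-109241812. Its 34 H3K4me1-marked regions all lay in introns of the gene, with 4 in intron 1, 10 in intron 2 and 20 in intron 3. They covered 32.4% of the window and had the largest median width of the 6 genes, 1332 bp. No marked region covered the 5′ end or lay in the 50 kb on either side of the gene. The closest began 4141 bp into the gene, and the nearest upstream lay 94970 bp from the 5′ end. The widest unbroken stretch, with gaps up to 1000 bp, joined 12 regions over 29.6 kb, and 0.152% of stretches in the genome were as wide. The widest single region was 6715 bp in intron 3 (chr12:109159454-109166168) and held 21 RUNX motifs. The nearest Runx3-bound region was 176 kb downstream of the gene (chr12:108972481-108973188).

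Myb encodes a factor with a MYB DNA-binding domain that keeps progenitors dividing and is needed as thymocytes mature. The gene lies on chr10:20844736-20880790. Only 6 of its 23 marked regions lay in the gene body, the fewest of the 6 genes, with 10 upstream and 7 downstream. The upstream set ran from 250 bp to about the edge of the window, and contained the widest, 4161 bp with its midpoint at -26.5 kb from the 5′ end (chr10:20905236-20909396). Of the downstream regions, 6 had the start of Ahi1 as the nearest, and 4 of those lay in the body of that gene. The nearest Runx3-bound region was 74.5 kb upstream (chr10:20954812-20955675). It overlapped H3K4me1 and had no RUNX motif in its window.

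RUNX motifs were also present in the H3K4me1-marked DNA of the genes without a called Runx3-bound region. The motif nearest the annotated 5′ end of each is shown here with 12 bases on each side (plus strand of mm9, motif in capitals). It lies in marked DNA, as do the motifs shown for the Runx3-bound regions of Tox and Satb1.
Zbtb7b (chr3:89198628-89198657): tcaacctgttggACCACAatgggcggtgcc
Gata3 (chr2:9811677-9811706): gagctgtgaaaaTGCGGTcgcgtgccccac
Bcl11b (chr12:109237124-109237153): agcggccaaggcACCGCAgccatgacacgg
Myb (chr10:20881354-20881383): tacagtcagcccTGTGGCtacagcctttga

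These motifs lay 55 bp from the annotated 5′ end in Zbtb7b, 31 bp in Gata3, 4673 bp in Bcl11b and 579 bp in Myb. The Gata3 and Bcl11b motifs are of the TGCGGT form, and the Zbtb7b motif is TGTGGT. Longer stretches are shown for the H3K4me1-marked region just upstream of Zbtb7b, the marked region next to its 5′ end, and for the widest region of Bcl11b, in each case the 300 bases with most RUNX motifs (capitals).
Zbtb7b, upstream (chr3:89199163-89199462): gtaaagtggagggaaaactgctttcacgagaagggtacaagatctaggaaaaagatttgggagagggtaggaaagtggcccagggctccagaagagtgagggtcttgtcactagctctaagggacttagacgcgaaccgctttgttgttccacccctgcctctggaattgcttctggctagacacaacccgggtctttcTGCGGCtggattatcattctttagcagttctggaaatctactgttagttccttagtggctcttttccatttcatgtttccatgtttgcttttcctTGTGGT
Bcl11b, intron 3 (chr12:109159633-109159932): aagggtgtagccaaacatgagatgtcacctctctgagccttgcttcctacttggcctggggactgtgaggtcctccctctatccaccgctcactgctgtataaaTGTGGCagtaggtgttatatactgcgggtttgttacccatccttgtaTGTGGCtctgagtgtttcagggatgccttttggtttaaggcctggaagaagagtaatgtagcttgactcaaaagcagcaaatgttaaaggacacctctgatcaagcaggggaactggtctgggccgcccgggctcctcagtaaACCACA

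The upstream region of Zbtb7b (chr3:89198761-89201301, 2541 bp) held 7 RUNX motifs in all, 2 of them in the stretch shown. The Bcl11b stretch held 3. Both stretches were picked for their motifs from longer regions, so that their counts are not comparable with those of windows fixed at a midpoint.

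Over all marked regions, 82 of 94 (87.2%) held a RUNX motif at Zbtb7b, Gata3, Bcl11b and Myb, at 2.11 motifs per kb of marked DNA. At Tox and Satb1 45 of 62 (72.6%) held one, at 1.86 per kb. Over the whole H3K4me1 list these values were 81.5% and 1.94 per kb. Bcl11b had most, with a motif in all 34 regions and 2.40 per kb, and Gata3 fewest per kb, with 1.7. The density was not higher at each of the 4 genes without a called Runx3-bound region, since Myb, with 1.72, and Gata3 lay below Tox, with 1.82, and Satb1, with 1.87. Median GC content of the marked regions was higher at the 4 genes (50.3% against 41.5%). The part of GC content in this was not tested.

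H3K4me1 was plentiful at most of the 6 genes. Over their windows of 1182 kb in all, the 156 regions covered 236 kb. The median gene of the 6 held 26 regions and had 24.1% of its window covered, and the median protein-coding gene held 7 and had 5.96% covered. As many regions as in Satb1 were held by 0.716% of protein-coding genes, as in Bcl11b by 0.801%, as in Tox by 2.40%, as in Zbtb7b by 3.39%, as in Myb by 4.79% and as in Gata3 by 30.1%. These windows are longer than that of most genes, and per 100 kb the shares of genes that reached as many were 3.98% for Satb1, 4.17% for Bcl11b, 41.9% for Tox, 1.28% for Zbtb7b, 5.08% for Myb and 29.4% for Gata3. By the covered part of the window they were 2.63% for Satb1, 2.91% for Bcl11b, 42.9% for Tox, 5.9% for Zbtb7b, 11.4% for Myb and 28.9% for Gata3. Tox had 6.66 regions per 100 kb, the lowest of the 6, and 7.71% of its window was covered.

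**Figure D4:**
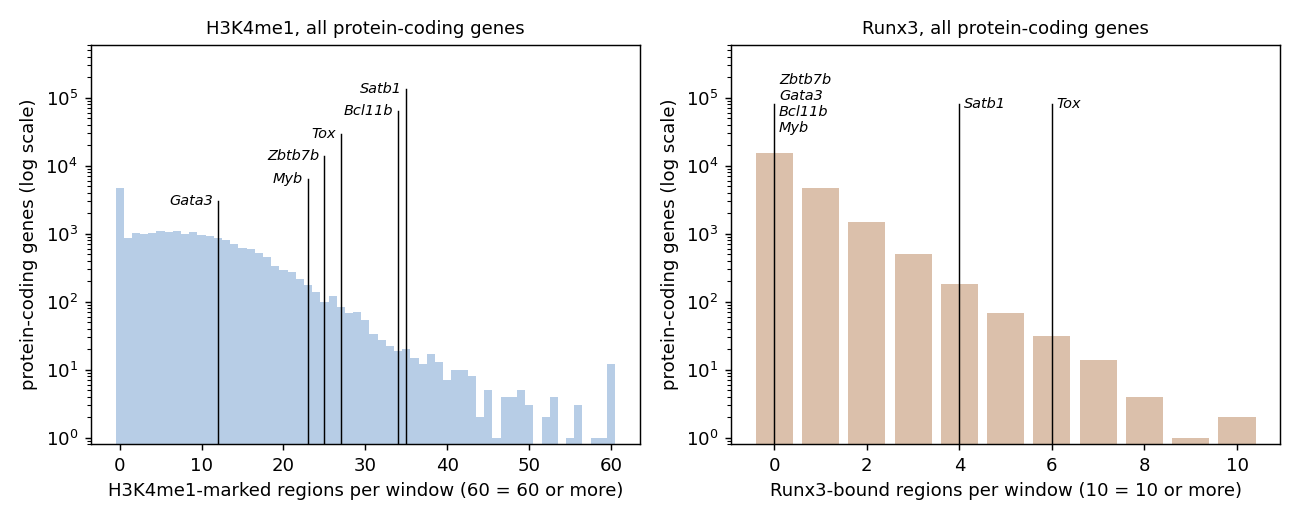
Histograms of 22350 protein-coding genes by the number of H3K4me1-marked regions (left) and Runx3-bound regions (right) in the window, with the number of genes on a log scale and black lines at the 6 genes. Satb1 and Bcl11b, with 35 and 34 marked regions, lie far in the right tail for H3K4me1 and apart for Runx3, with 4 regions and 0.

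The mark formed its broadest stretch in Satb1. There 11 regions with gaps of up to 1000 bp spanned 32.1 kb, from 2.44 to 34.6 kb into the gene, and 0.112% of stretches in the genome were as wide. This stretch took in Satb1 region 3 and the widest region of all 6 genes, 9223 bp at chr17:51960954-51970176, and 8 of the 13 start sites of Satb1 lay in H3K4me1. At Tox the stretches were short, up to 3.50 kb. The widest Tox region, 3083 bp in intron 1 (chr4:6828442-6831524), was the one that held Tox region 4. Myb reached 8.06 kb and Gata3 4.24 kb.

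The annotated 5′ end lay within H3K4me1 at Zbtb7b, Gata3 and Tox (chr4:6918587-6919268, 682 bp) and outside it at Satb1, Bcl11b and Myb, against 17.7% of protein-coding genes with a covered 5′ end. At Satb1 and Myb the gaps were 280 and 250 bp upstream and 2439 and 1957 bp downstream. The annotated end is the outermost of all transcripts of a gene, and the single start of a protein-coding Tox transcript lay outside H3K4me1. The start of the transcript used to number introns lay 20610 bp downstream of it in Satb1, 11434 bp in Gata3, 1414 bp in Zbtb7b and 758 bp in Tox. Of the 156 regions, 105 (67.3%) lay in the body of their own gene and 19 in that of another protein-coding gene, and 67.9% were over 5 kb from any start site, against 54.2% of the list.

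Runx3-bound regions also lay farther out. When each window instead ended at the neighboring protein-coding genes, at most 1 Mb to each side, Satb1 had 9, Tox 8, Gata3 5, Bcl11b 1 and Myb 1. This window was narrower than the main one upstream of Gata3 (24.5 kb) and downstream of Myb (44.5 kb), and on both sides of Zbtb7b, where it was 35.7 kb in all and could not gain a region. The 5 of Gata3 all lay downstream of the gene, at 167, 173, 263, 337 and 962 kb, and 4 of them overlapped H3K4me1. The additional regions of Satb1 and Tox, 5 and 2, all lay upstream and all overlapped H3K4me1. Which gene such distant regions act on was not tested. The edge of 50 kb decided little for Tox and Bcl11b, but at Satb1 the last region inside lay at 46.1 kb and the first outside at 73.6 kb. The genes without a called region were not unusually far from Runx3. At Zbtb7b 67.8% of protein-coding genes were at least as far from the nearest Runx3-bound region, at Myb 62.3%, at Gata3 43.7% and at Bcl11b 42.6%.

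Other regulators of the T lineage were counted in the same way. Of 16 such genes, 16 had H3K4me1-marked regions (8 to 52, median 21), against 79.3% of all protein-coding genes. Runx3-bound regions were present at 11, against the 30.8% of all protein-coding genes and the 58.1% of those with at least 12 marked regions. Hes1, with 11 marked regions, and Id2, with 8, fall below that limit and had none. Lef1 and Tcf7, HMG-box partners of beta-catenin, had 7 Runx3-bound regions each, as did Runx1, and the ETS factor gene Ets1 had 6. None was called at Cbfb, which encodes the partner subunit of RUNX proteins, nor at Notch1 and Gfi1. Runx3 itself had 2. Of 10 regulators of other blood lineages, 3 had Runx3-bound regions (Spi1 with 2, Cebpb and Pax5 with 1), close to the 30.8% of all protein-coding genes. Their H3K4me1 counts ran from 1 at Gata1 to 49 at the B-cell factor gene Ebf1.

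**Figure D5:**
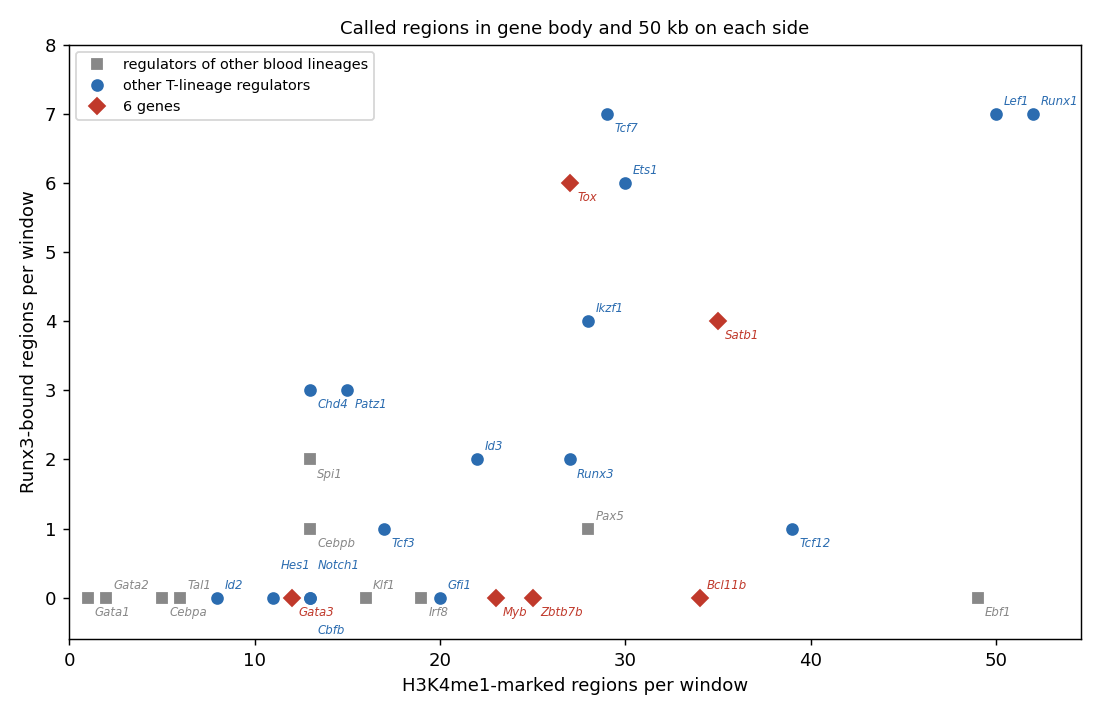
Each point is a gene, with its H3K4me1-marked regions on the horizontal and its Runx3-bound regions on the vertical axis, both as counts in the gene body and 50 kb on each side; red diamonds are the 6 genes, blue circles 16 other T-lineage regulators and grey squares 10 regulators of other blood lineages. Tox and Satb1 lie among Ets1, Ikzf1 and Tcf7. Bcl11b, Zbtb7b, Myb and Gata3 lie at 0 with 34, 25, 23 and 12 marked regions, as does Ebf1 with 49.

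The labelled cell type was checked by the same count. All 7 T-cell markers (Cd3d, Cd3e, Cd3g, Cd8a, Cd8b1, Lck, Cd5) had Runx3-bound regions, 2 to 7 each, and 17 to 31 H3K4me1-marked regions. Markers of B cells had 12 to 49 marked regions, and 4 of those 6 genes had Runx3-bound regions. The 5 myeloid and dendritic markers had 1 to 22 marked regions, with Lyz2 at 1, and 2 of them had Runx3-bound regions, and the 3 erythroid markers had 1 to 16 and no Runx3-bound region. Over all protein-coding genes 30.8% had a Runx3-bound region, and 58.1% of those with at least 12 marked regions, a limit that some myeloid and erythroid markers did not reach. Neighboring genes share such windows, and the part of other spleen cells in the regions of the 6 genes was not tested.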

How the data were processed

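ChIP-seq libraries of resting CD8-TC were made with anti-Runx3, anti-H3K4me1 or NIS. According to the methods of the study, the authors aligned reads to mm9 with ELAND and called regions with MACS on the joined repeats of each antibody against NIS (the submitters' processing notes name CASAVA 1.6 and 1.7). The deposited lists, 1 for each antibody, hold chromosome, start, end and a name, in base pairs, with no score, height, p-value or count. With the repeats joined, replicate error cannot be estimated, and a call depends on depth, which the lists do not give.

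Starts were moved by 1 bp to count from 1. Regions were given to a gene by their midpoint (gene body and 50 kb on each side, NCBIM37 genome and GENCODE M1 annotation, the build of the lists). Sequences were read from that genome, and some items are not reported here. Introns were numbered in the protein-coding transcript with the longest coding sequence. RUNX and other motifs were counted on both strands in 300 bp around midpoints and in windows 5 kb away. The background was the same count over all protein-coding genes or all regions. Shares have exact Clopper-Pearson 95% intervals, and no test was run, since the joined lists hold no replicates. All Runx3-bound regions of the 6 genes are named, with the widest H3K4me1-marked region of each gene and any over its 5′ end. The 6 genes, gene lists and motifs were chosen with earlier results of these data known. Alternatives were margins of 5, 10 and 100 kb or up to the neighboring genes, any overlap, merging within 1000 bp, width, cover, midpoint and other motif windows. The nearest start site was added after seeing the data. Counting was tested on simulated regions. Tools were Python 3.11.15, numpy 2.4.6, pandas 2.3.3, scipy 1.17.1, pysam 0.24.0, samtools 1.23.1 and matplotlib 3.10.9.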

Additional observations from a re-analysis of the deposited data

How the results depend on the processing

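The 10 Runx3-bound regions became 24 when windows ended at the neighboring genes, 18 when each region went to the nearest protein-coding start site (a choice made after seeing the data) and 4 when only regions at or above the median width counted. The 156 H3K4me1-marked regions became 272 up to the neighboring genes, 72 after merging within 1000 bp and 77 at or above the median width. Runx3-bound regions were called at 2 genes with margins of 5, 10 or 50 kb (Satb1 fell from 4 regions to 2 at 5 and 10 kb), at 4 with 100 kb (Zbtb7b and Myb gained 1 each), at 3 by the nearest start site (Gata3 gained 5) and at 5 up to the neighboring genes, where Satb1 had 9 and Tox 8 but the Zbtb7b window shrank to 35.7 kb and could gain none. Of 138 alternative values, 96 stayed within 1.5 times the count or within the interval of the share, among them counts of 0 that stayed 0 and H3K4me1 at 6 of 6 genes, which could hardly move. Width stood in for a score in the stricter setting, since the lists hold no score. No replicate could be left out. No paired analysis was possible because the repeats of an antibody had been joined before calling. Whether depth or background kept a region from being called was not tested, and the depth per region is not known. For Serpin genes the paper reports sites with apparent Runx3 binding that were not called in resting CD8-TC, which it ascribes to higher background.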
